A study of Homo sapiens with 12 samples.

Results

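The epidermal growth factor receptor gene EGFR and 3 genes whose products restrain signaling from it, LRIG1, DUSP4 and DUSP1, were followed in BT-549 cells with reduced annexin A6 (AnxA6). They were found as the array features that carry these gene symbols, and each symbol had 1 feature, so 4 of 53617 transcript clusters, or 4 of 14884 named genes, are described. A transcript cluster is the set of probes that the array assigns to 1 gene. The parent cells, BT-549, are an established human cell line from a breast cancer of the triple-negative, mesenchymal kind. Affymetrix Human Gene ST arrays measured the RNA of 3 stably transfected derivatives: BT-EV, which carried the empty vector (a control shRNA in the sample labels), BT-A6sh2, which carried shRNA-2 against annexin A6, and BT-A6sh5, which carried shRNA-5 against annexin A6. There were 4 arrays per line, all from cells growing in complete serum-containing medium and harvested by trypsinization, and no line was treated with EGF. The study calls the lines sub-clones, so an effect of an shRNA and a property of 1 clone cannot be told apart. It also calls the arrays technical replicates while the sample titles call them biological, so the p-values measure only the spread between these arrays.

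EGFR is a receptor tyrosine kinase that binds EGF-like ligands at the cell surface and signals through Ras to the MAP kinases ERK1 and ERK2, a pathway much studied in triple-negative breast cancer. Its signal is limited at several levels. LRIG1, a transmembrane protein with leucine-rich repeats, binds receptors of the EGFR family and promotes their ubiquitination by CBL and their degradation. DUSP1 (MKP-1) and DUSP4 (MKP-2) are nuclear dual-specificity phosphatases that inactivate MAP kinases by removing phosphate from the activation loop. Both are themselves induced by growth factors, so that they act as feedback inhibitors, and DUSP1 is a classic immediate-early gene that also responds to stress, cyclic AMP and glucocorticoids.

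The 250 bases before the outermost RefSeq start of EGFR, LRIG1 and DUSP1 are shown, and those of DUSP4 are not. In BT-A6sh5 LRIG1 rose while EGFR and DUSP1 fell, and a link of the motifs to these changes was not tested. The sequences are RefSeq's on GRCh38.p14, at chr7:55018767-55019016 (plus strand), chr3:66501122-66501371 (minus strand) and chr5:172771196-172771445 (minus strand), and are read 5′ to 3′ toward the gene. Capitals mark the half-site of the cyclic AMP response element (CRE, TGACG, both strands), the GC box (GGGCGG, both strands), the CCAAT box (CCAAT, both strands) and the TATA box (TATAAA, strand as shown).
EGFR: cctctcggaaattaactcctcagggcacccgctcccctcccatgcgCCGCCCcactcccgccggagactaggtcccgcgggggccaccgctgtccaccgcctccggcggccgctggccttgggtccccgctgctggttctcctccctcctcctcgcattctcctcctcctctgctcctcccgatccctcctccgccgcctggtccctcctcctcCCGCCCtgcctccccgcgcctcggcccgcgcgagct
LRIG1: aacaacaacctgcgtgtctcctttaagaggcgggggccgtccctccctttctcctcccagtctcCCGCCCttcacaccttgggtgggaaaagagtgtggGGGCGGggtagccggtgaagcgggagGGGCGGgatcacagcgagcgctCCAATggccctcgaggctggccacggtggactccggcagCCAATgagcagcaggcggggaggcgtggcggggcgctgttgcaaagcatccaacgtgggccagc
DUSP1: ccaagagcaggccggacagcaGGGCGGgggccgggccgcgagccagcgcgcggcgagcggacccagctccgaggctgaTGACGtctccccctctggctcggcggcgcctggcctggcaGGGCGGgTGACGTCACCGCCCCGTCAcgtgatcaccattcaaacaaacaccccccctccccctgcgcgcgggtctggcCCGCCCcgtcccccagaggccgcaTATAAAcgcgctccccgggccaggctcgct

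These windows differed in their motif content. DUSP1 held 4 CRE half-site matches, of which 2 lie in 1 full palindromic CRE (TGACGTCA), and EGFR and LRIG1 held 0. Of 27305 genes with a window of this length, 21.6% held at least 1 half-site, 0.249% held at least 4 and 1.75% held the full element. GC boxes were found 2 times in EGFR, 3 times in LRIG1 and 4 times in DUSP1, against at least 1 in 42.2% of genes. LRIG1 alone of these genes had CCAAT boxes (2 matches, at least 1 in 33.0% of genes), and DUSP1 alone had a TATA box (7.2% of genes). A match is a run of letters and not a measured binding site.

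The arrays of BT-EV were close to each other, with a mean correlation of 0.993, while BT-A6sh5 had 0.986 and BT-A6sh2 had 0.961. In the last line, replicates 1 and 3 were narrower in their values, whose standard deviation over all features was 2.18 and 2.19 where the other arrays had 2.26 to 2.33, and the description of replicate 1 names shRNA-5 while its title and its transfectant label name shRNA-2. Hybridization controls, which are foreign transcripts spiked into each sample, had array means of 8.10 to 8.29 in BT-EV, 8.50 to 8.92 in BT-A6sh5 and 8.66 to 9.05 in BT-A6sh2 on the log2 scale. ANXA6, the targeted gene, had log2 levels of 11.37 to 11.43 in BT-EV, 10.32 to 10.57 in BT-A6sh2 and 8.69 to 8.89 in BT-A6sh5, and its levels in BT-A6sh2 replicate 1 (10.57) and replicate 3 (10.50) lay outside those of BT-A6sh5. The 7 mesenchymal markers measured had an array mean of 9.68 to 9.73 in BT-EV, 9.46 to 9.53 in BT-A6sh2 and 9.40 to 9.51 in BT-A6sh5. The 12 epithelial markers had 5.28 to 5.38, 5.10 to 5.29 and 5.25 to 5.33, and ESR1 and PGR, receptors that triple-negative cells lack, had array means of 4.15 to 4.68 over all lines. Of the mesenchymal markers, SNAI2 and LOX fell in BT-A6sh5, where FN1 had 0.23 (adjusted p = 0.0808 from limma), and FN1 and LOX fell in BT-A6sh2. Of the epithelial markers, 0 were called in BT-A6sh5 (1 at an unadjusted p under 0.05) and KRT18 and CLDN3 had -0.53 and -0.46 in BT-A6sh2 (adjusted p = 0.0477 and 0.0301). Another transcript cluster of KRT18 went the other way, with a mean of 4.94 in BT-EV and 5.17 in BT-A6sh2. Of 4 immune and endothelial markers, BT-A6sh5 had a rise in CD68 alone (0.55, adjusted p = 0.00171), and 0 were called in BT-A6sh2 (1 at an unadjusted p under 0.05). The part of these markers in the results was not tested. In a bulk sample a change in the share of a kind of cell and a change in the RNA per cell cannot be told apart.

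In BT-A6sh5, the line with the lower ANXA6, all 4 genes differed from BT-EV. EGFR, DUSP4 and DUSP1 were lower and LRIG1 was higher, and the arrays of the lines overlapped for none of the genes. In BT-A6sh2, DUSP4 and DUSP1 were higher than in BT-EV, in the opposite direction, while EGFR and LRIG1 did not pass the test. All lines were fitted together in limma with moderated, two-sided tests of their means, and a feature was called at a Benjamini-Hochberg adjusted p under 0.05 over all 53617 transcript clusters. In BT-A6sh5 against BT-EV, where 4 of the 4 genes were called (1 higher, 3 lower), 10.8% of all transcript clusters were called, 4.11% higher and 6.71% lower. In BT-A6sh2 against BT-EV, where 2 of the 4 were called (both higher), 8.49% were called, 5.35% higher and 3.13% lower. In BT-A6sh5 against BT-A6sh2, where 4 of the 4 were called (1 higher, 3 lower), 19.5% were called, 8.16% higher and 11.4% lower. A call with at least a 2-fold difference was made for 2, 0 and 3 of the 4 genes in these comparisons, against 1.93% (0.742% higher, 1.19% lower), 1.41% (1.03% higher, 0.386% lower) and 3.31% (1.44% higher, 1.87% lower) of all transcript clusters. The 4 arrays of each line did not overlap for 4, 2 and 4 of the 4 genes and for 23.6% (11.4% higher, 12.2% lower), 18.4% (11.2%, 7.23%) and 20.5% (8.77%, 11.7%) of all transcript clusters. These shares include 37519 transcript clusters without a symbol. With 1 transcript cluster for each of the 14884 named genes, 3820 were called in BT-A6sh5 and 2424 in BT-A6sh2 against BT-EV. Between the knockdown lines 5354 were called. These counts came from a separate fit adjusted over the named genes alone, so their threshold is not that of the shares above. The 4 genes were chosen with earlier results of these arrays known, so their number is a description only. Counts within the gene lists below are also descriptions, to be read beside the calls over all transcript clusters and named genes.

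**Figure D1:**
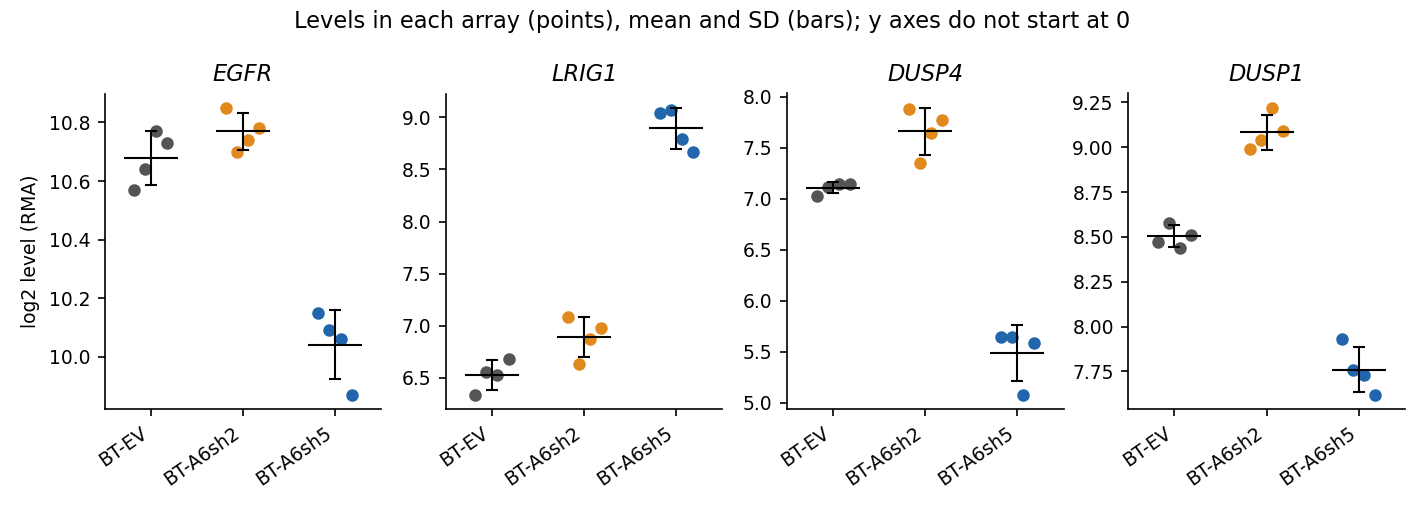
Log2 level (RMA) of EGFR, LRIG1, DUSP4 and DUSP1 in each of the 4 arrays of BT-EV, BT-A6sh2 and BT-A6sh5 (points), with the mean and SD of each line (bars). The BT-A6sh5 arrays lie below the others for EGFR, DUSP4 and DUSP1 and above the others for LRIG1, and the BT-A6sh2 arrays lie above those of BT-EV for DUSP4 and DUSP1.

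EGFR itself was lower in BT-A6sh5 and at about the BT-EV level in BT-A6sh2. In BT-EV replicates 1 to 4 its log2 level was 10.57, 10.64, 10.77 and 10.73 (mean 10.68 ± 0.0920, SD, n = 4). In BT-A6sh2 it was 10.85, 10.70, 10.74 and 10.78 (mean 10.77 ± 0.0634), and in BT-A6sh5 it was 10.15, 10.09, 10.06 and 9.87 (mean 10.04 ± 0.118). The highest BT-A6sh5 array thus lay below the lowest BT-EV array, whereas the BT-A6sh2 arrays lay within or just above the range of BT-EV. EGFR gave a bright signal in every line, above that of 95.7% of transcript clusters even in BT-A6sh5, although brightness also depends on the probes and does not rank the abundance of different genes.

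The log2 fold change of EGFR in BT-A6sh5 against BT-EV was -0.63 (standard error 0.0891, 95% interval -0.83 to -0.44, adjusted p = 0.000566 from limma), or 64.5% of the BT-EV level. In BT-A6sh2 it was 0.09 (95% interval -0.10 to 0.29, adjusted p = 0.532), an interval that holds no change as well as a rise of up to 0.29. Between the knockdown lines EGFR differed by -0.73 (adjusted p = 0.000166, BT-A6sh5 against BT-A6sh2). Once the hybridization controls were added as a covariate, the change in BT-A6sh5 was -0.55 (adjusted p = 0.202). The standard error of this change rose from 0.0891 to 0.174, and the estimate was also smaller. That covariate itself separated BT-EV from both knockdown lines without overlap. In comparisons with BT-EV, a difference that goes with these controls and one of the line thus cannot be fully told apart. The difference between the knockdown lines was -0.75 in the same fit (adjusted p = 0.000796). Their control levels overlapped only through BT-A6sh2 replicate 4 (8.66). The other BT-A6sh2 arrays (9.01 to 9.05) lay above all those of BT-A6sh5 (8.50 to 8.92).

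LRIG1 had the largest change of the 4 genes in BT-A6sh5 against BT-EV. In BT-EV its log2 level was 6.34, 6.56, 6.53 and 6.68 (mean 6.53 ± 0.141, SD, n = 4) and in BT-A6sh2 it was 7.08, 6.63, 6.87 and 6.98 (mean 6.89 ± 0.192). In BT-A6sh5 it was 9.04, 9.07, 8.79 and 8.67 (mean 8.90 ± 0.195). The BT-A6sh5 arrays stood far above both other lines, and only BT-A6sh2 replicate 2 overlapped the range of BT-EV.

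In BT-A6sh5, LRIG1 rose 5.15-fold, or by 2.37 on the log2 scale (standard error 0.129, 95% interval 2.08 to 2.65, adjusted p = 2.47e-07 from limma). It ranked 36th in descending order of log2 fold change among 16098 named transcript clusters, and 0.742% of all transcript clusters rose at least 2-fold with an adjusted p under 0.05. In BT-A6sh2 the log2 fold change was 0.36 (95% interval 0.08 to 0.65, adjusted p = 0.0975) and the call was not made, except without BT-A6sh2 replicate 2 (0.45, adjusted p = 0.0359). The lines differed by 2.00 (adjusted p = 9.75e-07). Once the hybridization controls were added as a covariate, the BT-A6sh5 value was 2.59 (adjusted p = 0.000265).

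DUSP4 moved in opposite directions in the knockdown lines. Its log2 level was 7.03, 7.11, 7.14 and 7.14 in BT-EV (mean 7.11 ± 0.0518, SD, n = 4). In BT-A6sh5 it was 5.64, 5.64, 5.08 and 5.59 (mean 5.49 ± 0.275), and in BT-A6sh2 it was 7.88, 7.35, 7.64 and 7.77 (mean 7.66 ± 0.230). No array of any line overlapped those of another line, and the 4 BT-EV arrays were much closer to each other than those of either knockdown line.

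In BT-A6sh5, DUSP4 fell 3.07-fold, with a log2 value of -1.62 for the difference (standard error 0.146, 95% interval -1.94 to -1.30, adjusted p = 1.88e-05 from limma). Its mean level in BT-A6sh5 lay above that of 58.9% of transcript clusters, not far from the middle of the array. DUSP4 was among the 1.19% of transcript clusters that fell at least 2-fold with an adjusted p under 0.05. In BT-A6sh2 it had 0.55 (95% interval 0.23 to 0.87, adjusted p = 0.0404). This smaller rise was close to the threshold, since only 2 of the 12 fits that left out 1 array called it, those without BT-A6sh2 replicate 2 (0.66) and without BT-A6sh5 replicate 3 (0.55), with adjusted p = 0.0129 to 0.103 over the 12, and not without BT-A6sh2 replicates 1 and 3 together (0.45, adjusted p = 0.166). The difference between the knockdown lines was larger than either change, with -2.17 (standard error 0.146, adjusted p = 1.38e-06), and it was -2.07 without those arrays (adjusted p = 5.5e-05).

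DUSP1 had the same order of lines as DUSP4. Its log2 level was 8.47, 8.58, 8.44 and 8.51 in BT-EV (mean 8.50 ± 0.0614, SD, n = 4). It was 7.93, 7.76, 7.73 and 7.62 in BT-A6sh5 (mean 7.76 ± 0.126) and 8.99, 9.04, 9.22 and 9.09 in BT-A6sh2 (mean 9.08 ± 0.0977). The 3 sets of arrays were apart from each other, with BT-EV between the knockdown lines.

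DUSP1 fell in BT-A6sh5 to 59.8% of the BT-EV level (log2 fold change -0.74, standard error 0.0910, 95% interval -0.94 to -0.54, adjusted p = 0.000204 from limma). It rose 1.50-fold in BT-A6sh2 (log2 fold change 0.58, 95% interval 0.38 to 0.78, adjusted p = 0.00487). Unlike that of DUSP4, the rise of DUSP1 in BT-A6sh2 was called in all 12 fits that left out 1 array (adjusted p = 0.00489 to 0.0225) and without BT-A6sh2 replicates 1 and 3 (0.56, adjusted p = 0.0173). Leaving out BT-A6sh2 replicate 1 alone, the array whose description names the other shRNA, gave 0.61 for DUSP1 (adjusted p = 0.00657), 0.48 for DUSP4 (adjusted p = 0.0828) and 0.30 for LRIG1 (adjusted p = 0.185) in BT-A6sh2. Between the knockdown lines DUSP1 differed by -1.32 (adjusted p = 1.67e-06). Once the hybridization controls were added as a covariate, the changes against BT-EV were -0.58 and 0.80 (adjusted p = 0.166 and 0.426), and the difference between the knockdown lines was -1.38 (adjusted p = 1.04e-05).

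**Figure D2:**
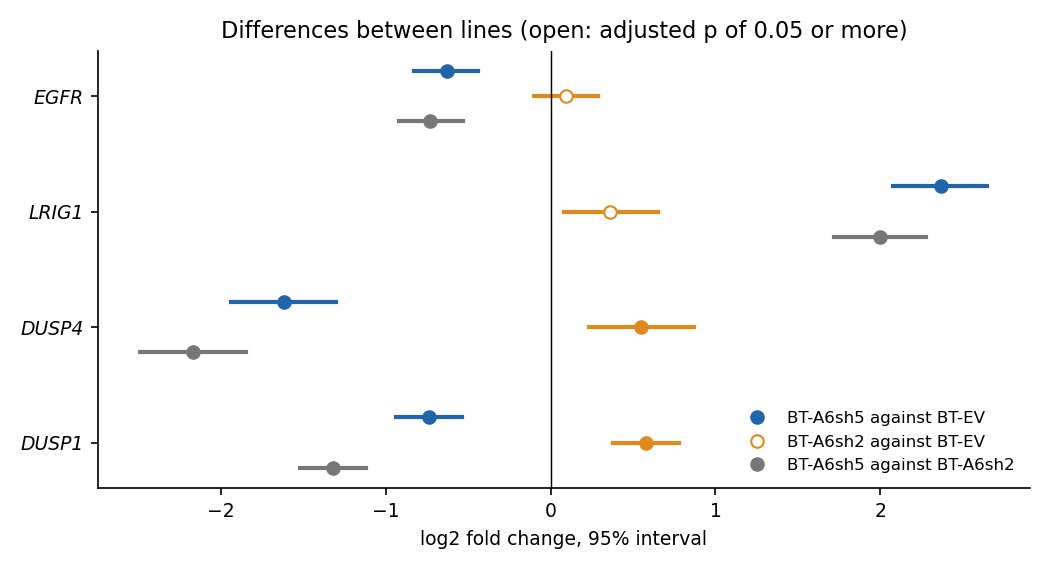
Log2 fold change (points) and 95% interval (lines) of EGFR, LRIG1, DUSP4 and DUSP1 in the 3 comparisons of lines, from limma with the spread pooled over the lines, where open points have an adjusted p of 0.05 or more. The open points are EGFR (0.09) and LRIG1 (0.36) in BT-A6sh2 against BT-EV.

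An exact permutation test of the arrays, two-sided, gave the smallest p that 4 arrays against 4 allow (p = 0.0286, 1 of 70 assignments in each direction) for every comparison whose arrays did not overlap. These were all 4 genes in BT-A6sh5 against BT-EV, all 4 in BT-A6sh5 against BT-A6sh2, and DUSP4 and DUSP1 in BT-A6sh2 against BT-EV. EGFR and LRIG1 in BT-A6sh2 had exact p = 0.171 and 0.0571. Both comparisons with the control used the same BT-EV arrays, and the difference of BT-A6sh5 from BT-A6sh2 does not rest on them. Its limma p-values do in part, since the spread was pooled over the lines. With these lines fitted alone, the difference of EGFR had adjusted p = 0.00385 from limma, against 0.000166 in the pooled fit.

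Of the other ERBB receptors, ERBB3 and ERBB4 were called in neither line, and ERBB2 was not analysed here. ERBB3, which pairs with other family members and signals mainly to PI3 kinase, had log2 fold changes of 0.00 in BT-A6sh5 and 0.02 in BT-A6sh2 (adjusted p = 0.991 and 0.929 from limma). ERBB4, a neuregulin receptor, had 0.00 and 0.07 (adjusted p = 0.993 and 0.746). Their mean log2 levels in BT-EV were 4.93 and 4.32, near or below the middle of all transcript clusters on the array. Of the 3 receptors measured, EGFR alone was called in BT-A6sh5, and 0 of the 3 were called in BT-A6sh2 (0 at an unadjusted p under 0.05).

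Among 9 EGF family ligands measured, 0 rose and 3 fell in BT-A6sh5, with a median log2 fold change of -0.01 against 0.05 over all transcript clusters. With 1 transcript cluster per named gene, 3820 of 14884 were called in this comparison. The ligands that fell were NRG1 and NRG2, neuregulins that bind ERBB3 and ERBB4, and HBEGF, a heparin-binding ligand of EGFR. NRG1 fell by 0.76 on the log2 scale (adjusted p = 9.28e-05), from a BT-EV mean of 8.29 ± 0.0673 to 7.53 ± 0.116 (SD, n = 4). HBEGF fell by 0.51 (adjusted p = 0.00241), from 8.44 ± 0.0819 to 7.93 ± 0.0721. HBEGF thus moved in the direction of its receptor in BT-A6sh5.

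NRG2 fell by 0.61 (adjusted p = 0.00296) in the transcript cluster with the higher mean and had -0.02 (adjusted p = 0.970) in the other, so that the probes of this gene disagreed. In BT-A6sh5 the ligands BTC, EGF, EPGN, EREG, NRG3 and NRG4 were not called, at log2 values of -0.01, 0.10, 0.03, -0.13, 0.13 and 0.11. Their mean log2 levels in BT-EV were low, from 3.13 in EREG to 4.60 in BTC. These lay above only 16.4% to 42.8% of transcript clusters, so little can be read from their values in either line. In BT-A6sh2, 0 of the 9 ligands passed (2 at an unadjusted p under 0.05), and HBEGF and EPGN had 0.26 and 0.46 (adjusted p = 0.0843 and 0.0765). Against BT-A6sh2, too, BT-A6sh5 had less of HBEGF, NRG1 and NRG2, with log2 fold changes of -0.77, -0.67 and -0.67 (adjusted p = 1e-04, 0.000176 and 0.00120). Once the hybridization controls were added as a covariate, 1 of the 9 fell in BT-A6sh5 and 3 were again lower in BT-A6sh5 than in BT-A6sh2.

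Of 11 regulators that act at the level of the receptor, 3 rose and 1 fell in BT-A6sh5 (median -0.11). Calls there with 1 transcript cluster per named gene were 3820 of 14884. Of the 11, LRIG1 rose most. UBASH3B, a CBL-binding tyrosine phosphatase that can also slow the down-regulation of receptors, rose 2.32-fold, from 8.12 ± 0.0469 in BT-EV to 9.33 ± 0.0617 (log2 fold change 1.21, adjusted p = 9.33e-06 from limma), and had 0.01 in BT-A6sh2 (adjusted p = 0.965). SOCS3, a feedback inhibitor of cytokine receptors, rose by 0.47 in BT-A6sh5 and fell by 0.40 in BT-A6sh2 (adjusted p = 0.0163 and 0.0490), with 0.95 and 0.28 in another transcript cluster (adjusted p = 0.0763 and 0.583). SOCS4, which binds EGFR and promotes its degradation, showed the reverse, with -0.33 and 0.43 (adjusted p = 0.0196 and 0.0108). LRIG3, a relative of LRIG1, fell by 0.46 in BT-A6sh2 (adjusted p = 0.0215) and had -0.31 in BT-A6sh5 (adjusted p = 0.0735), so that the rise of LRIG1 in BT-A6sh5 was not shared by it. In BT-A6sh2, 1 of the 11 rose and 2 fell (median 0.01). The number that fell was 1 with BT-A6sh2 and BT-EV fitted alone and after repeated quantile normalization. With the hybridization controls as a covariate, 0 rose and 0 fell in BT-A6sh2, and 2 rose and 0 fell in BT-A6sh5. When BT-A6sh5 and BT-EV were fitted alone, 4 of the 11 fell in BT-A6sh5, and without BT-A6sh2 replicates 1 and 3 in the fit 4 fell as well.

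Sprouty proteins, which block receptor signaling to Ras and are induced by it, were measured for 3 genes. In BT-A6sh5, SPRY4 rose by 0.70 (adjusted p = 0.00296). Its value in BT-A6sh2 was -0.21 (adjusted p = 0.308) and the knockdown lines differed by 0.91 (adjusted p = 0.000397). SPRY3 fell by 0.33 and 0.32 (adjusted p = 0.0295 and 0.0442), and the second call was lost in the fit of that pair of lines alone. In all, 1 of the 3 rose and 1 fell in BT-A6sh5, and 0 rose and 1 fell in BT-A6sh2. Neither call in BT-A6sh5 was made with the hybridization-control covariate (SPRY4 0.37, adjusted p = 0.621, and SPRY3 -0.31, adjusted p = 0.576), and that of SPRY3 was also lost after repeated quantile normalization (-0.28, adjusted p = 0.0637).

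The 10 MAP kinase phosphatases, the family of DUSP1 and DUSP4, did not move as a block in BT-A6sh5, where 2 rose and 4 fell (median log2 fold change -0.27 against 0.05 over all transcript clusters). DUSP10 (MKP-5), which prefers the stress kinases JNK and p38, fell as far as DUSP4, from 7.78 ± 0.0593 in BT-EV to 6.15 ± 0.0879 (SD, n = 4; log2 fold change -1.63, adjusted p = 2.53e-07 from limma). It had 0.06 in BT-A6sh2 (adjusted p = 0.695). DUSP7, a cytoplasmic phosphatase of ERK, fell by 0.55 in BT-A6sh5, with 0.13 in BT-A6sh2 (adjusted p = 0.00112 and 0.357).

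The phosphatases that rose act on ERK. DUSP6 (MKP-3), a cytoplasmic ERK phosphatase and a common readout of ERK activity, rose 2.68-fold in BT-A6sh5 (log2 fold change 1.42, adjusted p = 0.00207). Its level was 7.01 to 7.14 in BT-EV and 8.16 to 8.66 in BT-A6sh5, and it was spread from 6.43 to 7.86 in BT-A6sh2. DUSP5, a nuclear ERK phosphatase, rose in both lines, by 0.71 and 0.61 (adjusted p = 0.000601 and 0.00589), as no other of the 10 did. Its other transcript cluster had 0.21 and 0.41 (adjusted p = 0.425 and 0.0715). DUSP2, DUSP8, DUSP9 and DUSP16 had -0.07, -0.12, -0.42 and -0.08 in BT-A6sh5 and 0.01, -0.35, -0.19 and -0.01 in BT-A6sh2, none called.

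In BT-A6sh2, 3 of the 10 rose (DUSP1, DUSP4 and DUSP5) and 0 fell (median 0.09), and without BT-A6sh2 replicates 1 and 3 the number was 2. Between the knockdown lines 1 was higher in BT-A6sh5 (DUSP6, 1.23, adjusted p = 0.00399) and 4 were lower (DUSP1, DUSP4, DUSP7 and DUSP10, with -0.67 and -1.69 for the last pair). The number of 4 was also found in the 4 other fits repeated for the lists, including the one with the hybridization controls as a covariate, in which 2 of the 10 fell and 0 rose against BT-EV in BT-A6sh5.

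**Figure D3:**
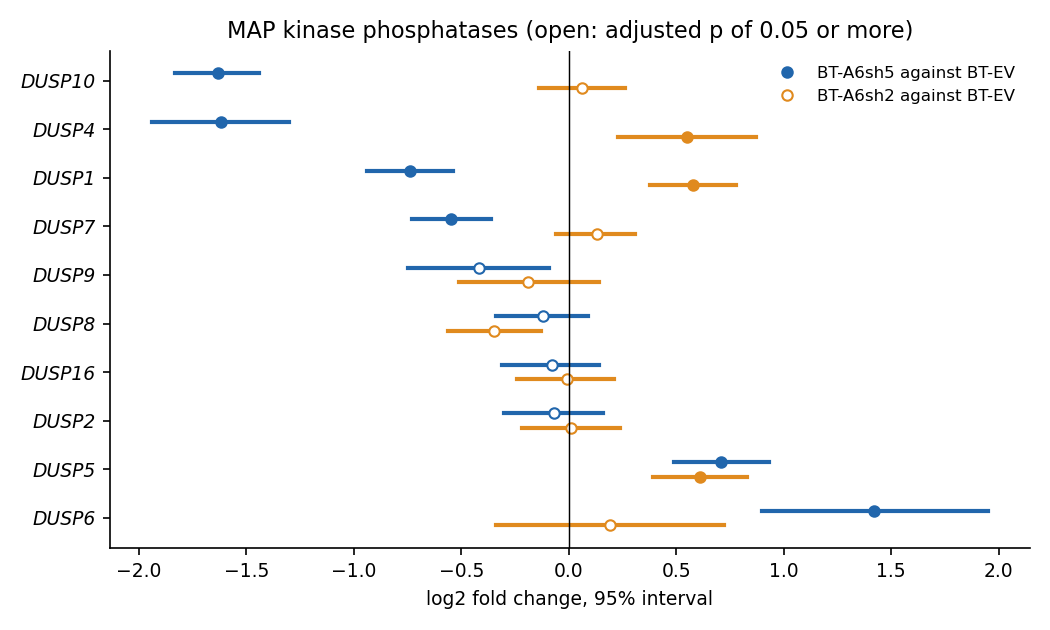
Log2 fold change (points) and 95% interval (lines) of 10 MAP kinase phosphatases in BT-A6sh5 and BT-A6sh2 against BT-EV, ordered by the change in BT-A6sh5, where open points have an adjusted p of 0.05 or more. DUSP10 and DUSP4 (-1.63 and -1.62) lie at one end in BT-A6sh5 and DUSP6 (1.42) at the other, and DUSP4 and DUSP1 lie on opposite sides of 0 in the 2 lines.

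Between the receptor and ERK lie Ras, the RAF and MEK kinases and their scaffolds. Of 11 such cascade genes measured, 3 rose and 0 fell in BT-A6sh5 (median -0.04), and 1 rose and 0 fell in BT-A6sh2 (median -0.02). In BT-A6sh5, 2 fell with this line and BT-EV fitted alone or without BT-A6sh2 replicates 1 and 3. With 1 transcript cluster per named gene, 3820 of 14884 were called in BT-A6sh5 and 2424 in BT-A6sh2. KSR1, a scaffold that joins RAF, MEK and ERK, rose 2.02-fold in BT-A6sh5 (log2 fold change 1.01, adjusted p = 3.02e-05 from limma) and had -0.11 in BT-A6sh2 (adjusted p = 0.476). MAP2K1, which encodes MEK1, rose by 0.45 and 0.36 (adjusted p = 0.0102 and 0.0447). The second call was lost in all 4 other fits repeated for the lists, including that of the pair of lines alone. ARAF rose by 0.33 in BT-A6sh5 (adjusted p = 0.0360). Among 8 genes of the JNK and p38 kinases, which DUSP1 and DUSP10 also inactivate, 0 rose and 2 fell in BT-A6sh5 and 1 rose and 2 fell in BT-A6sh2. MAP2K6, an activator of p38, changed most, from 6.69 ± 0.125 in BT-EV to 5.65 ± 0.252 in BT-A6sh5 and 4.80 ± 0.552 in BT-A6sh2 (SD, n = 4; log2 fold changes -1.05 and -1.89, adjusted p = 0.0114 and 0.00134). MAPK9, which encodes JNK2, fell by 0.50 in BT-A6sh5, with 0.27 in BT-A6sh2 (adjusted p = 0.00582 and 0.101). In BT-A6sh2 the p38 gene MAPK11 had -0.47 and the p38 activator MAP2K3 had 0.35 (adjusted p = 0.0494 and 0.0218), and both calls were lost with that line and BT-EV fitted alone (adjusted p = 0.0986 and 0.0678) and without BT-A6sh2 replicates 1 and 3 (adjusted p = 0.229 and 0.0606).

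Of 10 genes of receptor endocytosis and sorting, 0 rose and 1 fell in BT-A6sh5 (median -0.02), and 0 rose and 2 fell in BT-A6sh2 (median -0.10). STAM, a subunit of the complex that sorts ubiquitinated receptors, fell by 0.58 in BT-A6sh5 (adjusted p = 0.000219 from limma) and had -0.27 in BT-A6sh2 (adjusted p = 0.0396). TSG101, a subunit of the next sorting complex, had 0.00 in BT-A6sh5 and -0.39 in BT-A6sh2 (adjusted p = 0.987 and 0.0206). Fitted as a pair of lines alone, BT-A6sh2 and BT-EV gave neither call (adjusted p = 0.102 for STAM and 0.0608 for TSG101), and STAM was also not called there without BT-A6sh2 replicates 1 and 3 (-0.22, adjusted p = 0.123).

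Genes whose transcription follows ERK activity went in both directions in BT-A6sh5. Of 14 such genes measured, which include DUSP4, DUSP6 and SPRY4, 4 rose and 3 fell in BT-A6sh5 (median 0.15), and 3 rose and 0 fell in BT-A6sh2 (median 0.19), a count of rises that was 1 without BT-A6sh2 replicates 1 and 3. ETV1, an ETS family transcription factor gene, rose by 1.57 in BT-A6sh5 (adjusted p = 0.000224 from limma). CCND1, which encodes cyclin D1, fell by 0.83 (adjusted p = 2.86e-05) from 9.92 ± 0.0671 to 9.09 ± 0.0301, and had 0.25 in BT-A6sh2 (adjusted p = 0.0671). EPHA4, an ephrin receptor gene, had the pattern of DUSP4, with -0.73 in BT-A6sh5 and 0.62 in BT-A6sh2 (adjusted p = 0.00186 and 0.0135) and a difference of -1.34 between the knockdown lines (adjusted p = 1.62e-05).

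**Figure D4:**
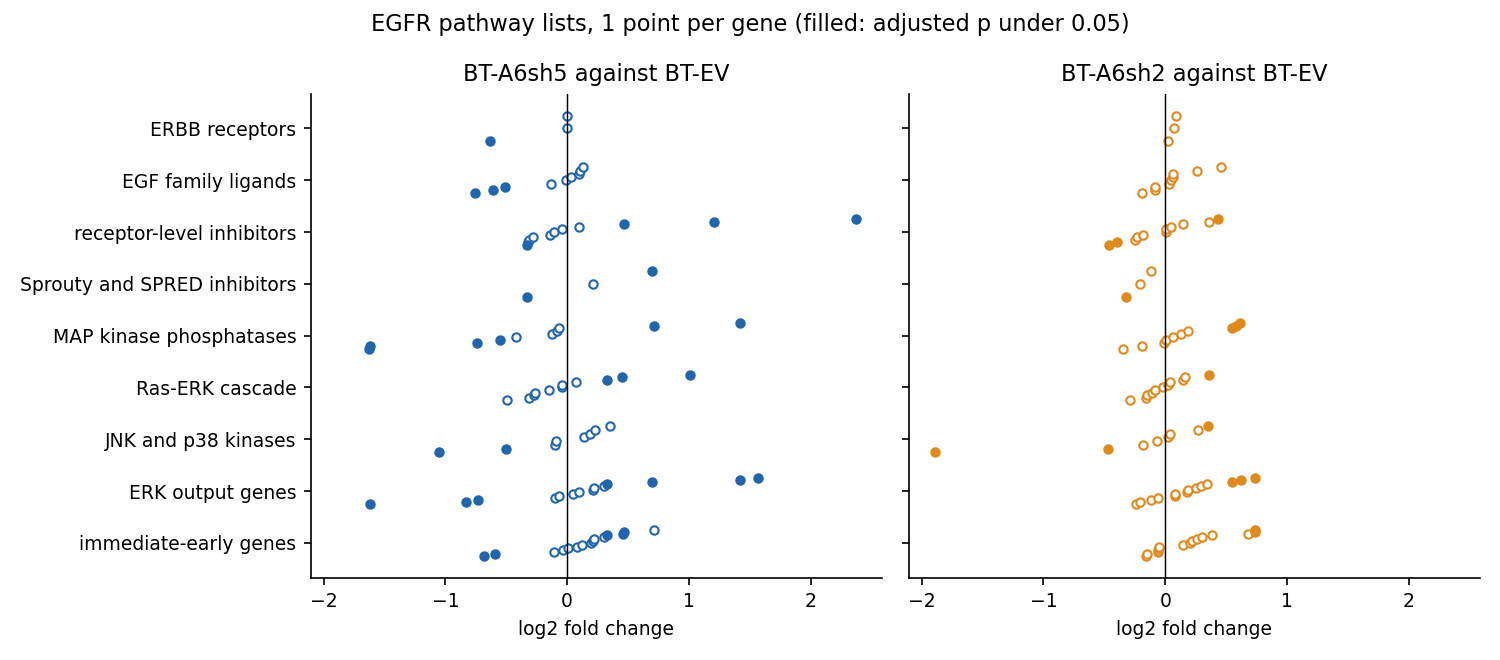
Log2 fold change of each measured gene (1 point per gene, transcript cluster with the highest mean) in 9 lists of the EGFR pathway, in BT-A6sh5 and in BT-A6sh2 against BT-EV, where filled points have an adjusted p under 0.05. Filled points lie on both sides of 0 within the MAP kinase phosphatases and the ERK output genes in BT-A6sh5, and the farthest point to the right is LRIG1 (2.37).

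Since DUSP1 is an immediate-early gene, the other members of that class were set beside it. Of 15 measured, 3 rose and 2 fell in BT-A6sh5 (median 0.20) and 2 rose and 0 fell in BT-A6sh2 (median 0.20). Over the 14884 named genes, 3820 and 2424 were called in the fit with 1 transcript cluster each. In BT-A6sh2, where DUSP1 rose, the transcription factor genes EGR1 and FOSB each rose by 0.74 (adjusted p = 0.0105 and 0.00251 from limma). Each has another, dimmer transcript cluster. There the mean of EGR1 was 5.53 in BT-EV and 6.01 in BT-A6sh2. That of FOSB was 5.75 and 5.94, with an SD of 0.300 in BT-A6sh2, a smaller difference than in its main transcript cluster. In BT-A6sh5, where DUSP1 fell, KLF6 and MYC fell by 0.68 and 0.59 (adjusted p = 0.000206 and 0.00125), KLF2 and SRF rose by 0.47 and 0.46 (adjusted p = 0.0197 and 0.0105), and EGR1 and FOSB had 0.30 and 0.08 (adjusted p = 0.246 and 0.768). FOS, singled out after its values were seen, had the largest log2 fold change of the list in BT-A6sh5 but did not pass the test, with 0.71 there and 0.68 in BT-A6sh2 (adjusted p = 0.0545 and 0.0681). With the hybridization-control covariate 0 of the 15 rose and 0 fell in BT-A6sh5. The mean level of the 15 genes was 8.74 to 8.78 in the BT-EV arrays, 8.82 to 8.90 in those of BT-A6sh5 and 8.77 to 9.10 in those of BT-A6sh2, and its part in the values of DUSP1 was not tested.

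The glucocorticoid-responsive genes, of which DUSP1 is 1, had 2 rises and 3 falls in BT-A6sh5 and 1 rise and 1 fall in BT-A6sh2 among 8 measured (median -0.05 in both). CRISPLD2, a secreted glycoprotein gene, had -2.29 and -1.27 in BT-A6sh5 and BT-A6sh2 (limma, adjusted p = 2.33e-08 and 5.14e-05), whereas the clock gene PER1 and the kinase gene SGK1 rose by 0.58 and 0.45 in BT-A6sh5 (adjusted p = 0.0105 and 0.00191). KLF9, a transcription factor gene, fell by 0.49 in BT-A6sh5 (adjusted p = 0.0340). CRISPLD2 was thus lower in both lines, unlike DUSP1.

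The named transcript clusters whose levels over the 12 arrays were most like those of each gene were listed by Pearson's correlation, as a description, since the arrays share 3 lines and their means set most of it. For EGFR they were CHST12 and HS3ST3B1 (r = 0.986 each), NDRG1 and C1orf21 (0.984 each) and SERINC5 (0.983). All of these had a lower level in BT-A6sh5, from -0.75 in CHST12 to -2.05 in HS3ST3B1, a heparan sulfate sulfotransferase gene, and between 0.08 and 0.15 in BT-A6sh2. For LRIG1 they were PAPPA2 (0.992) and POPDC3, PRPF8, SHISA2 and DOCK4 (0.991 each), with rises in BT-A6sh5 from 0.43 in PRPF8 to 3.37 in POPDC3. For DUSP4 they were LINC00839 (0.994), OXNAD1 and LANCL2 (0.992 each) and EMP2 and ZNF346 (0.991 each). EMP2, a tetraspan membrane protein gene, had -1.63 and 0.73 in the 2 knockdown lines (adjusted p = 1.58e-05 and 0.0139), nearly the values of DUSP4. For DUSP1 they were FEM1C (0.995), NR2C2AP (0.99), TMEM131L and PTTG1 (0.988 each) and TWNK (0.987). PTTG1, which encodes securin, had -0.73 and 0.53 (adjusted p = 0.000353 and 0.00880).

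**Figure D5:**
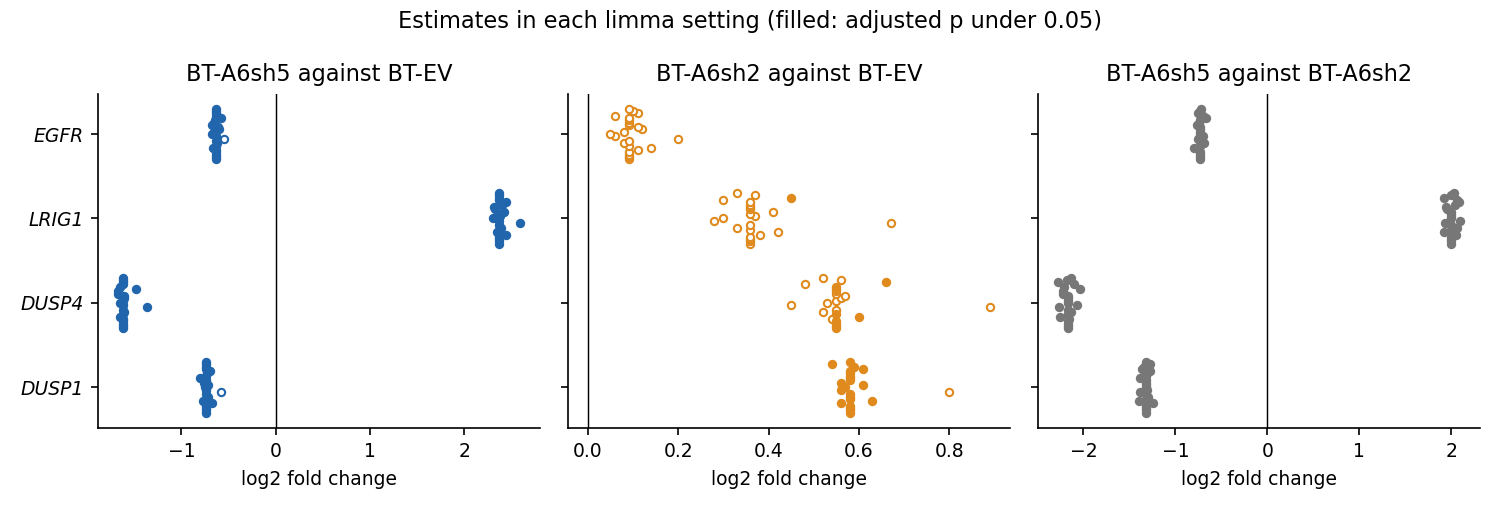
Log2 fold change of EGFR, LRIG1, DUSP4 and DUSP1 in each of 23 limma settings (points), for the 3 comparisons of lines, where filled points have an adjusted p under 0.05. All values keep their side of 0, the points of DUSP4 in BT-A6sh2 against BT-EV are mostly open, and the value farthest right there (0.89) is that with the hybridization controls as a covariate.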

How the data were processed

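The authors processed the Affymetrix Human Gene ST arrays in Affymetrix Expression Console by RMA, which subtracts background, equalizes the distributions of the arrays by quantiles and condenses the probes of a transcript cluster into 1 value. The deposited values are on the log2 scale and were used as they are, with 53617 transcript clusters, 0 missing values and 0 pairs of identical arrays. Quantile normalization makes the overall distribution alike between arrays, so that a change shared by most genes would not be seen. The submitters' processing notes list affy, RMA and limma. Their versions and the genome build were not given in the sources used here. Symbols of genes were taken from the platform annotation (16098 transcript clusters with 1 symbol, 0 with several, 37519 with none) and were updated by gene identifier through the RefSeq gene table of GRCh38.p14. 

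Groups came from the sample titles. The 3 group means were fitted and compared by lmFit and eBayes of limma 3.58.1 under R 4.3.3 (degrees of freedom 9 residual and 2.68 prior, Benjamini-Hochberg adjustment, threshold 0.05, and 2-fold where stated). For genes with several transcript clusters, that of the highest mean was used for counts. The procedure was tested on simulated data. Tables and figures used Python 3.11.15, pandas 2.3.3 and matplotlib 3.10.9. Named genes were the 4 genes, every measured ERBB receptor, EGF family ligand and MAP kinase phosphatase, up to 4 called genes per list with the largest change, and the 5 genes most alike in level. The genes and lists were chosen with earlier results of these data known. Promoter windows were the 250 bases before the outermost RefSeq start of EGFR, LRIG1 and DUSP1. Some genes of the lists were not analysed here, and precision is limited by having 4 arrays per line. Alternatives were each pair of lines fitted alone, a trended robust prior, a filter at the median level, a second quantile normalization, array weights, centring on the median, keeping 1 transcript cluster for each gene, a replicate block, the hybridization controls as a covariate, and arrays left out.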

Additional observations from a re-analysis of the deposited data

Results flagged for a closer look

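DUSP4 in BT-A6sh5 had 1 array away from the others. Replicate 3 had a log2 level of 5.08 against 5.59 to 5.64 in the other arrays, so that the gap to its neighbor was 0.901 of the range of the line. Chance gives a gap above the threshold of this flag in about 1 in 20 groups, and 12 groups were examined. Without that array the log2 fold change of DUSP4 against BT-EV was -1.48 (adjusted p = 2.65e-05 from limma).

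The changes from BT-EV differed between the knockdown lines for all 4 genes, tested in the same limma fit. The difference, BT-A6sh5 minus BT-A6sh2, was 2.00 for LRIG1, -1.32 for DUSP1, -0.73 for EGFR and -2.17 for DUSP4, with adjusted p = 9.75e-07, 1.67e-06, 0.000166 and 1.38e-06. The depletion of ANXA6, the shRNA and the clone cannot be told apart with 1 line for each shRNA. In the changes from BT-EV, a difference that goes with the hybridization controls cannot be fully told apart from these either.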

How the results depend on the processing

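Each result for EGFR, LRIG1, DUSP4 and DUSP1 was recomputed with limma in 10 other ways and without each array. No value changed sign, and the differences between the knockdown lines passed throughout. With the hybridization controls as a covariate, the calls of EGFR (-0.55) and DUSP1 (-0.58) in BT-A6sh5 and of DUSP4 (0.89) and DUSP1 (0.80) in BT-A6sh2 were lost (adjusted p = 0.202, 0.166, 0.537 and 0.426). DUSP4 in BT-A6sh2 was also lost when this line and BT-EV were fitted alone (0.55), after repeated quantile normalization (0.54), with array weights (0.52), with the replicate number as a block (0.55, adjusted p = 0.0711), without BT-A6sh2 replicates 1 and 3 (0.45), and in 10 of 12 fits without 1 array. Over all 12 its value ranged from 0.48 to 0.66, and the highest, without BT-A6sh2 replicate 2, was called. LRIG1 in BT-A6sh2 had 0.30 to 0.45 without 1 array. The block changed no other call of the 4 genes. Same-numbered arrays of different lines did not deviate together over all transcript clusters (correlations -0.0764 to 0.0497, with 4 of 12 arrays best matched by their own number). The hybridization controls did climb with the replicate number in BT-EV (8.10 to 8.29) and BT-A6sh5 (8.50 to 8.92). In BT-A6sh2 they were 9.01, 9.04, 9.05 and 8.66. A shared order of processing was not tested.

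The number of transcript clusters called in BT-A6sh5 was 5800, and it was 9058 in the pair fitted alone, 3820 with 1 transcript cluster per gene, where fewer were tested, 9908 with array weights and 930 with the covariate. In BT-A6sh2 it was 4551, and it was 1608, 2424, 3013 and 4 in the same settings, 2692 after repeated quantile normalization, 2327 with the replicate block and 2368 without replicates 1 and 3. Without 1 array it ranged from 1483 to 9093, from the fits lacking 1 BT-EV array (1656, 1483, 1610 and 1674 for replicates 1 to 4) to that lacking BT-A6sh2 replicate 2, and was 2979 in the one lacking BT-A6sh2 replicate 3. Between the knockdown lines it was 10477, with 5541 in the pair fitted alone and 5354 with 1 transcript cluster per gene. Where not stated, the cause was not tested. Of 3672 values for 56 other named genes, 3298 kept their side of the threshold, 311 lost the call, and 63 gained it. Counts within the gene lists were repeated in 4 settings chosen after seeing the data; with the covariate, 0 of the ligands, phosphatases, cascade genes, ERK output genes and immediate-early genes passed in BT-A6sh2. With it, 0 of the Sprouty, immediate-early, endocytosis and JNK and p38 genes passed in BT-A6sh5.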
